A study of Drosophila melanogaster with 3 samples.

Results

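Chromatin of Drosophila melanogaster embryos was mapped for M1BP (CG9797), and the peaks were read here at the genes that encode M1BP itself and 9 other promoter and insulator factors: Dref, pzg, Chro, BEAF-32, CTCF, su(Hw), pita, Cp190 and mod(mdg4). These 10 genes were taken by gene name from 13945 protein-coding genes on arms 2L, 2R, 3L, 3R, 4 and X. Every entry of 5 deposited peak lists with its summit within 1000 bp of an annotated start site of a member was kept, which gave 112 entries. Whole embryos, 0 to 24 h old and of both sexes, of a transgenic line stably expressing CG9797 with GFP fused to its C-terminus formed 1 group of 3 biological replicates, for chromatin immunoprecipitation sequencing (ChIP-seq) on sonicated fragments of 200 to 800 bp. All 3 libraries carried the transgene, no second genotype or treatment was part of the series, and the libraries cannot be assigned to tissues. The labels give neither the promoter of the transgene nor whether the antibody recognised GFP, and a free-text label calls the libraries input controls, whereas the assay, antibody and control fields describe immunoprecipitates.

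M1BP is a zinc-finger protein that binds Motif 1, a core promoter element of many broadly expressed fly genes. DREF binds the DNA replication-related element (DRE) of another class of broadly expressed promoters, where putzig (pzg, also called Z4) and Chromator (Chro) are partner proteins. Insulator proteins mark borders between chromatin domains: BEAF-32, CTCF, Su(Hw) and Pita bind DNA directly, and Cp190 and Mod(mdg4) are cofactors that they recruit. In flies many of their sites lie at promoters.

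Each of the 3 replicate lists and the list from all replicates together (the pooled list) held 30000 entries, background included, and a list filtered for reproducibility (the thresholded list) held 4598. Entries were ranked within a list by the authors' signal value, so rank 1 is the strongest, and values of different lists were not compared. Of the thresholded summits, replicates 1, 2 and 3 had an entry within 100 bp for 96.8%, 71.5% and 86.6%. Read depth is unknown, since the files hold no counts, so no counting error can be given; the spread over the 3 replicates is shown by their values. No test was made on the members, because they were chosen with results of these data known and there is no second group.

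The sequences that follow (NCBI Release 6, dm6 coordinates, 5′ to 3′ on the strand of the named gene) show start sites that hold an exact match to Motif 1 or the DRE, with the match in capitals. The first pair holds the Motif 1 core GGTCACACT at the start sites of su(Hw) and Polr2I (chr3R:14308560-14308639 and chr3R:14309039-14309118), genes that point away from each other. The other 3 hold the DRE, TATCGATA, at Cp190 (chr3R:15275212-15275301), CTCF (chr3L:7356684-7356773) and mod(mdg4) (chr3R:21377372-21377461).
su(Hw): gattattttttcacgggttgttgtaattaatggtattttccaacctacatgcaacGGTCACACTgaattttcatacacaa
Polr2I: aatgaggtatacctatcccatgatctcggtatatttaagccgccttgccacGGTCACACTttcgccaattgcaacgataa
Cp190: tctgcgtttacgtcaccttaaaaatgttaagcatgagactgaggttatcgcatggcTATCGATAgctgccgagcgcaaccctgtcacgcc
CTCF: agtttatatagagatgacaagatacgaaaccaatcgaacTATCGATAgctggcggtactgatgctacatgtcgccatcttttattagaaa
mod(mdg4): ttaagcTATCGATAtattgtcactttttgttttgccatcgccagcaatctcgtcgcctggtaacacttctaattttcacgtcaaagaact

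The next sequences hold neither the Motif 1 core, with up to 1 mismatch, nor a DRE. They are shown because they lie beside the strongest summit of the members (the stretch between the start sites of Chro and Ssl1, chr3L:22878985-22879088), between the start sites of pzg and CG12974 (chr3L:21285963-21286098) and of Dref and RpL13 (chr2L:9967230-9967312), and within 100 bp of the strongest thresholded summit at M1BP itself (chr3R:8731781-8731981).
Chro: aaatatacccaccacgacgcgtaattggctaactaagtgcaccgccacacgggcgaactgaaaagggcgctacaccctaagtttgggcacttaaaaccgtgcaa
pzg: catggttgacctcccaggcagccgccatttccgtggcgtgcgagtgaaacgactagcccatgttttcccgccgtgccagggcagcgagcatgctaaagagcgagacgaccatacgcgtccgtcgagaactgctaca
Dref: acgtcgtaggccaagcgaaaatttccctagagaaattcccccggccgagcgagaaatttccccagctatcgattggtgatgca
M1BP: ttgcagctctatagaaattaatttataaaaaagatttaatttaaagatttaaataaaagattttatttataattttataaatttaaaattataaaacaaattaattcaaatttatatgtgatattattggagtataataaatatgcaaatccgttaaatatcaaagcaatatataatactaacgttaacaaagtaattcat

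M1BP peaks lay at the promoters of nearly every member. In the thresholded list 9 of the 10 genes had a summit within 1000 bp of a start site, against 36.7% of all protein-coding genes (5114 of 13945), and BEAF-32 was the exception. Within 250 bp the count was 8 of 10, against 31.1% of all genes, because the summit at su(Hw) lay 416 bp away. Within 500 bp it was again 9, against 34.5%, and within 2000 bp it was 10, against 40.6%. Among the 4598 strongest entries of a replicate, replicates 1 and 2 had a summit at all 10 members and replicate 3 at 9, lacking M1BP. The same rule called 36.9%, 34.9% and 34.8% of all genes in replicates 1, 2 and 3. With no limit on rank, the pooled list and replicates 1 and 2 had an entry at all 10 members, against 66.2%, 65.6% and 63.3% of all genes, and replicate 3 at 9, against 64.4%. In the strongest entries of all 3 replicates together the count held for 9 of 10 members and for 27.2% of all genes. Among the 2000 strongest entries of all 3 replicates the count was 2 of 10 (Chro and pzg), near the 14.8% of all genes.

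The 9 members with a thresholded summit had 14 of them, at 3 to 416 bp from the nearest start site, with a median of 101 bp. At M1BP, Cp190, Chro and pzg the summits formed pairs in overlapping intervals, 199 to 202 bp apart. In all 4 pairs the stronger summit had the lower coordinate. Whether paired summits are separate binding positions was not tested, and each is counted separately here and below. Of the 14 summits, 9 lay upstream and 5 downstream of the nearest start site. The best signal value per member ran from 378 at pita to 1564 at Chro with a median of 579.8, against a median of 685 over the 5114 genes with a thresholded summit. Of the 9, 4 (Chro, Cp190, pzg and Dref) were above that median, near the share of all such genes. The remaining 13 entries of the pooled list at the members ranked from 5852 to 25230. The replicate lists held 71 entries at the members, of which 49 were among their 4598 strongest. Matching shares over all genes were not counted for these entries or for the upstream and downstream split. Nor were they counted for the summit pairs, their spacing or which summit of a pair was stronger.

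**Figure D1:**
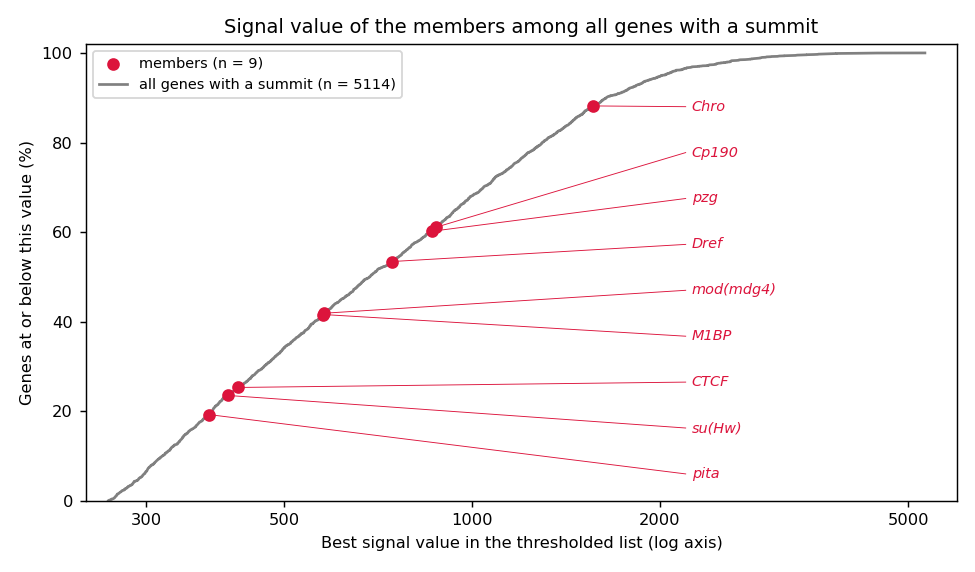
Best signal value of each member in the thresholded list (red points, n = 9, log x axis) on the cumulative share of all 5114 genes with a thresholded summit (grey line, % of genes at or below the value). Chro lies above 88.1% of these genes and pita above 19.2%, and the others lie between them.

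Many of these peaks lay near a second gene, as did peaks at promoters in general. A start site on the opposite strand lay within 1000 bp upstream of 6 of the 10 members, against 36.2% of all genes: CG8202 at 393 bp from M1BP, RpL13 at 84 bp from Dref, CG4338 at 281 bp from Cp190, Polr2I at 500 bp from su(Hw), Ssl1 at 105 bp from Chro and CG12974 at 137 bp from pzg. All 6 had a thresholded summit, as did 67.6% of all 5052 genes with such a neighbour. Of the 4 members without one, CTCF, mod(mdg4) and pita had a thresholded summit and BEAF-32 had none, against 19.1% of 8893 genes of that kind. Of the 14 thresholded summits, 11 had a start site of another gene within 1000 bp, and 7 of these lay nearer to that gene than to the member. Counted in the same way over all protein-coding genes, 4797 of 6701 pairs of a gene and a thresholded summit (71.6%) had a start site of another gene within 1000 bp, and 50.1% of those lay nearer to the other gene. The counts of the members were near these shares. Which gene of a pair such a peak belongs to cannot be told apart in these lists.

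**Figure D2:**
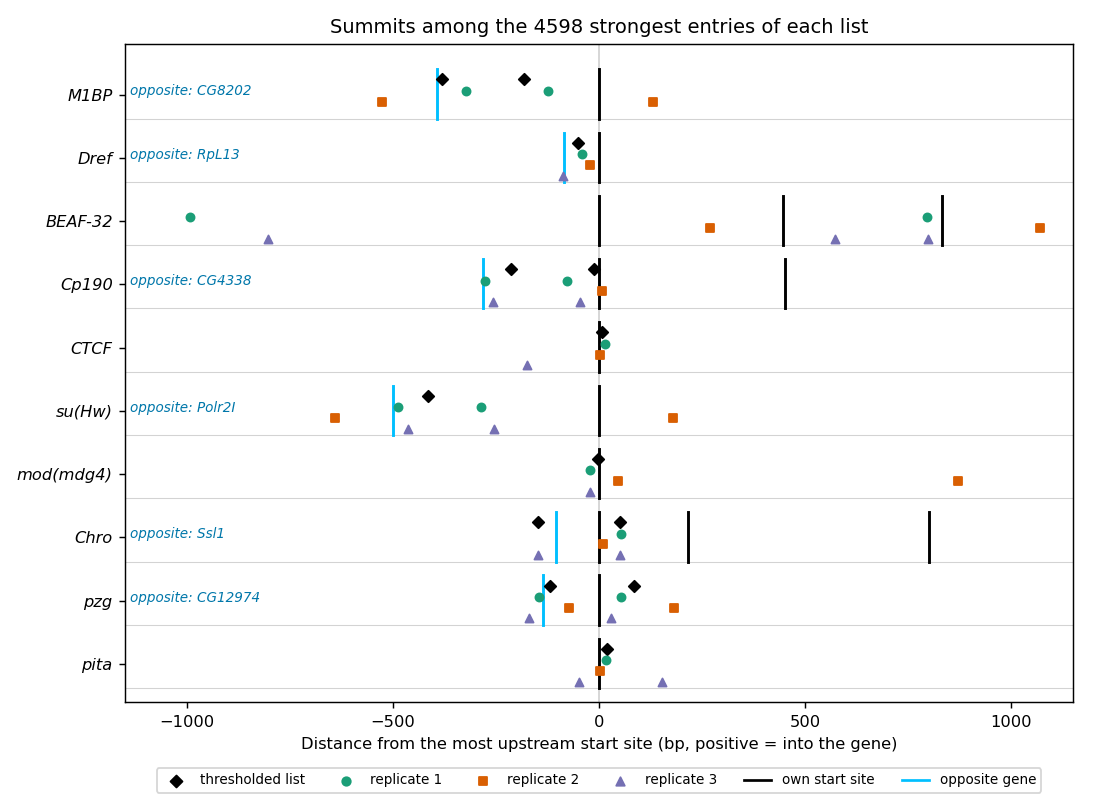
Summits among the 4598 strongest entries of each list at the 10 members, as distance in bp from the most upstream start site (positive into the gene). Black lines are start sites of the member and blue lines the start site of the opposite gene. The entries at the second start site of pita lie outside the range shown. The best summits of the 3 replicates are within 44 bp of each other at Chro, where replicate 3 has a second one 149 bp upstream, whereas the summits of replicate 2 at M1BP and su(Hw) flank those of the other lists.

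The gene M1BP (FBgn0037621; 3R, 8729790 to 8731698, minus strand) had thresholded summits 183 and 382 bp upstream of its start site, with signal values of 577.5 and 306 and ranks of 2123 and 3990 (chr3R:8731623-8732138 and chr3R:8731822-8732337). Both lay between M1BP and CG8202, and the weaker one was 11 bp from the start site of CG8202. Its best entry had a signal value of 346 and rank 1992 in replicate 1 and of 109 and rank 3101 in replicate 2, and replicate 3 listed none within 1000 bp, its nearest summit being 9442 bp away. M1BP was the only member that a replicate list lacked. The base composition differed along this stretch. GC content within 100 bp was 14.9% at the stronger thresholded summit and 42.3% at the other, against a median of 38.8% over all 4598 thresholded summits. The summits of replicate 2, 130 bp inside M1BP and 527 bp upstream in CG8202, had 44.3% and 50.7%, and those of replicate 1 had 21.4% and 35.3%. The part of base composition in these positions was not tested. DNA of the transgene and of the M1BP locus cannot be told apart in the peak lists.

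No exact Motif 1 core, and none with 1 mismatch, lay within 1000 bp of the start site of M1BP. A match to the Su(Hw) core GCATACTTT lay 166 bp inside the gene, 349 bp from the nearest thresholded summit. Another match to this core lay 311 bp inside su(Hw), and the share of all genes with it within 1000 bp was not counted. By best rank over the 3 replicates, the genes most like M1BP were CG8202, which shares its peaks, brk and RN-tre. The summed absolute difference of the log10 ranks was 0 for CG8202, 0.147 for brk and 0.149 for RN-tre. Brk, a repressor of Dpp target genes, ranked 2772 and 3123 in replicates 1 and 2, RN-tre, a GTPase-activating protein gene, ranked 2391 and 2644, and neither had an entry in replicate 3.

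Dref (FBgn0015664; 2L, 9964147 to 9967229, minus strand) encodes the DRE-binding factor. Its single thresholded summit had a signal value of 744 and rank 1633 (chr2L:9967152-9967406), and lay between the start sites of Dref and RpL13, a ribosomal protein gene, 51 bp from the first and 33 bp from the second. The best entries had signal values of 373, 265 and 95.6 and ranks of 1844, 1096 and 2824 in replicates 1, 2 and 3, so replicate 2 placed it highest and replicate 3 lowest. The 3 summits fell within 64 bp. The stretch between the start sites held no DRE, but held CGATA, the shorter element that BEAF-32 binds, which the DRE also contains. All lists but the thresholded one had a weak entry inside the coding sequence, 881 to 927 bp from the start site, at ranks of 13017 to 27164.

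Putzig (pzg; FBgn0259785; 3L, 21286099 to 21290310, plus strand) had 2 thresholded summits. The stronger, with a signal value of 863 and rank 1361 (chr3L:21285907-21286162), lay 118 bp upstream of pzg and 19 bp from the start site of CG12974, and the weaker, with 396 and rank 3106, lay 84 bp inside pzg. The best entries had signal values of 392, 319.8 and 192 and ranks of 1736, 859 and 1330 in replicates 1, 2 and 3. All 3 replicates thus ranked the promoter above 2000.

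Chro (FBgn0044324; 3L, 22873702 to 22878984, minus strand), which encodes the chromodomain protein Chromator, had the strongest peak of the members. Its signal value was 1564 and its rank 391 (chr3L:22878695-22879112), in the 5′ UTR 51 bp inside the gene. The best entries had signal values of 868, 369.5 and 315 and ranks of 335, 673 and 463 in replicates 1, 2 and 3. All 3 ranks were ahead of those of every other member except BEAF-32 in replicate 1. A weaker thresholded summit, with a value of 269.6 and rank 4484, lay 149 bp upstream, 44 bp from a start site of Ssl1, which encodes a subunit of the general factor TFIIH. It was also the only thresholded entry of the members whose −log10 q-value, 3.48, stayed below the ceiling of 3.95. The share of all thresholded entries at that ceiling was not counted. Of the 3 start sites of Chro, only the most upstream had a thresholded summit within 100 bp.

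Cp190 (FBgn0000283; 3R, 15270432 to 15275241, minus strand), the cofactor shared by most fly insulator proteins, had thresholded summits 13 and 213 bp upstream of its distal start site. Their signal values were 876 and 593 and their ranks 1332 and 2071 (chr3R:15275149-15275414 and chr3R:15275196-15275711). The strongest replicate entries had signal values of 510.0, 161 and 239 and ranks of 1223, 2048 and 913 in replicates 1, 2 and 3, within 85 bp of each other. A DRE lay across the distal start site, 9 bp from the nearest thresholded summit. A second DRE lay 14 bp upstream of the other start site at 15274790, which had no entry within 100 bp in any list. The farther summit lay 68 bp from the start site of CG4338.

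Mod(mdg4) (FBgn0002781; 3R, 21350846 to 21377401, minus strand), the other cofactor, has 22 annotated transcripts that share 1 start site. Its thresholded summit lay 3 bp upstream of it, the closest of all members, with a signal value of 579.8 and rank 2110 (chr3R:21377272-21377559). The strongest replicate entries had signal values of 296, 171 and 129 and ranks of 2362, 1909 and 2112 in replicates 1, 2 and 3, the narrowest range of ranks after that of Chro. No start site of another gene lay within 1000 bp of the summit. A Motif 1 core with 1 mismatch lay across the start site and a DRE 47 bp upstream. Replicate 2 also listed an intronic entry 872 bp downstream at rank 3565. Replicate 1 had one 826 bp downstream at rank 23723, and replicate 3 had none there.

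CTCF (FBgn0035769; 3L, 7353578 to 7356713, minus strand), a zinc-finger insulator protein, had a thresholded summit in its 5′ UTR, 6 bp from the start site, with a signal value of 421 and rank 2939 (chr3L:7356449-7356964). The strongest replicate entries had signal values of 199.7, 129 and 70.7 and ranks of 3529, 2587 and 3741 in replicates 1, 2 and 3. The summits of replicates 1 and 2 lay within 15 bp of the start site and that of replicate 3 lay 174 bp upstream. No other gene started within 1000 bp of the thresholded summit. A DRE lay 14 bp upstream of the start site, and a match to the CTCF core AGNNGGCGC lay 187 bp inside the gene. Within 1000 bp, this core also lay 308 bp upstream of Chro, 723 and 761 bp upstream of Dref and 376 bp upstream of pzg. The share of all genes with this core in that window was not counted.

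Su(Hw) (FBgn0003567; 3R, 14304455 to 14308589, minus strand), a zinc-finger insulator protein, was the only member with an exact Motif 1 core near a summit or a start site. Its thresholded summit had a signal value of 406 and rank 3033 (chr3R:14308888-14309141) and lay 416 bp upstream, 84 bp from the start site of Polr2I, an RNA polymerase II subunit gene. The core shown above lay 5 bp downstream of the start site of su(Hw), 421 bp from that summit. The other core shown, 501 bp upstream of su(Hw) and just inside Polr2I, lay 85 bp from the summit. The strongest replicate entries had signal values of 315, 161 and 155 and ranks of 2220, 2051 and 1736 in replicates 1, 2 and 3, but at different places. They lay 287 and 254 bp upstream of su(Hw) in replicates 1 and 3, and 642 bp upstream, inside the coding sequence of Polr2I, in replicate 2. GC content within 100 bp was 26.9% and 27.9% at the summits of replicates 1 and 3 and 50.2% at that of replicate 2; its part in the positions was not tested.

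Pita (FBgn0034878; 2R, 23548967 to 23554712, minus strand), another zinc-finger insulator protein, had a thresholded summit within 250 bp of each of its 2 start sites. That at the upstream site lay 20 bp inside the gene, with a signal value of 378 and rank 3257 (chr2R:23554674-23554805). The other, with 293 and rank 4171, lay 213 bp from the second site and 25 bp from the start site of Dcp-1, a caspase gene on the opposite strand that overlaps pita. Near that second summit the replicates ranked their strongest entries 5706, 3766 and 4054, so replicate 1 did not hold it among its 4598 strongest. The strongest replicate entries had signal values of 198, 133 and 84.0 and ranks of 3561, 2516 and 3183 in replicates 1, 2 and 3. A DRE lay 61 bp upstream of the upstream start site.

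BEAF-32 (FBgn0015602; 2R, 14770469 to 14772630, plus strand) was the member without a thresholded summit. The closest one lay 1019 bp from its first start site, just outside the limit, and 27 bp from the start site of Spred, with a signal value of 1376 and rank 569 (chr2R:14769304-14769648). In replicate 1 the summit of that peak lay at 994 bp, just inside the limit, with a signal value of 939 and rank 253, and this was the best entry of any member in any replicate. Nearer to BEAF-32, the pooled list had an entry 22 bp upstream of the third start site, with a signal value of 199 and rank 5852, below the thresholded list. Its counterpart was 36 and 34 bp upstream in replicates 1 and 3, with signal values of 157 and 73.5 and ranks of 4438 and 3614. In replicate 2 the best entry, with 118 and rank 2850, lay in a coding exon 178 bp upstream of the second start site. Within 250 bp of a start site BEAF-32 was thus among the strongest entries of all 3 replicates. A DRE lay 203 bp upstream of its first start site.

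**Figure D3:**
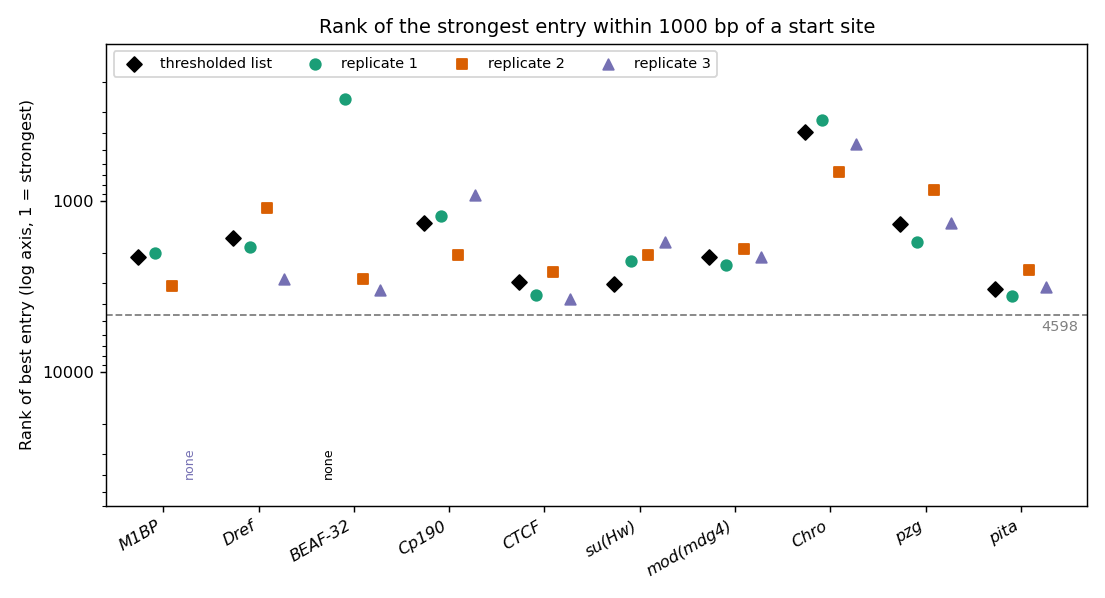
Rank of the strongest entry within 1000 bp of a start site of each member (log axis, 1 at the top), in the thresholded list and in replicates 1, 2 and 3; "none" marks a list without an entry. All points lie above the dashed line at 4598, and M1BP in replicate 3 and BEAF-32 in the thresholded list have no point.

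Motif matches were counted within 100 bp, on both strands, of the 16 start sites of the members (10 genes, so that sites of 1 gene share sequence) and of their 14 thresholded summits. The Motif 1 core lay at 1 of 16 member start sites, against 4.42% of 19252 start sites of all genes, and at 1 of 14 member summits, against 14.5% of 4598 summits. With up to 1 mismatch it lay at 3 of 16 start sites and 3 of 14 summits (su(Hw), mod(mdg4) and pita), against 11.5% and 33.2%. The full Motif 1 consensus, which is 1 base longer at each end, lay at 1 of 16 start sites, that of su(Hw), against 3.25%, and at none of the 14 summits, against 10.7%. The DRE lay at 5 of 16 start sites (2 of Cp190 and 1 each of CTCF, mod(mdg4) and pita), against 6.45% of all start sites, and at 4 of 14 summits, against 10.9% of all summits. The shorter CGATA, which overlaps every DRE on both strands, lay at 11 of 16 start sites and 9 of 14 summits, against 37.1% and 46.6%.

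The letters of other factors' motifs were counted in the same windows. GAGAG, bound by GAGA factor, lay at 2 of 16 start sites (Dref and pita) and at no member summit, against 25.0% and 18.6% over all windows. The E-box CAGCTG lay at 2 of 16 start sites and 2 of 14 summits, against 13.4% and 14.9%. The CTCF core AGNNGGCGC and the Su(Hw) core GCATACTTT lay at none of the 16 start sites or 14 summits. Over all start sites they lay at 1.92% and 0.286%, and over all summits at 2.94% and 0.326%.

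**Figure D4:**
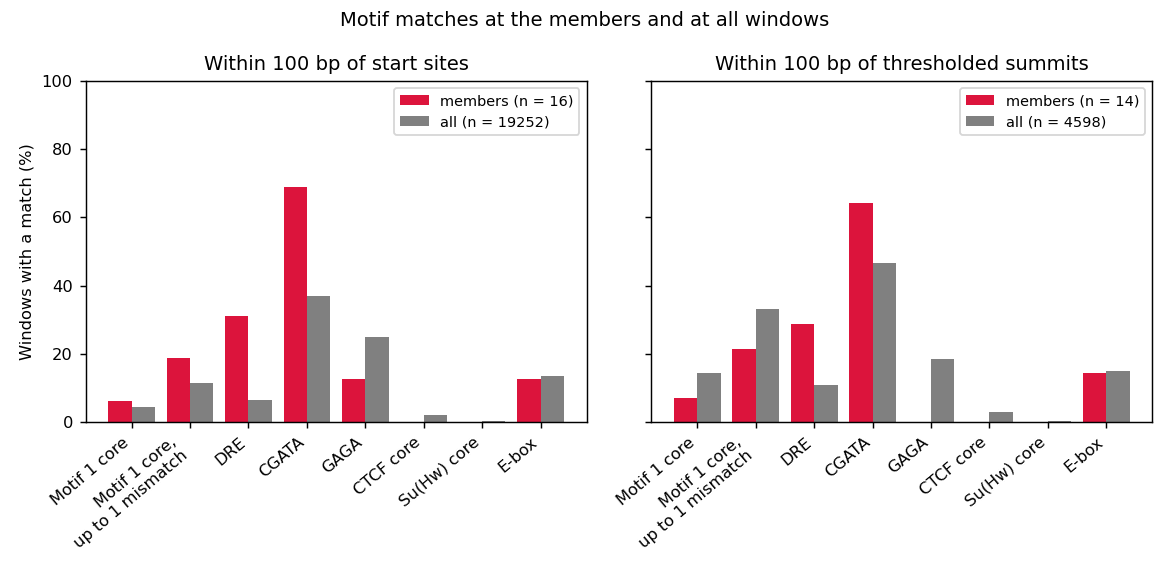
Share of windows with a motif match within 100 bp of start sites (left; 16 of the members, red, and 19252 of all genes, grey) and of thresholded summits (right; 14 of the members, red, and 4598 in all, grey). The DRE bar of the members is above that of all windows in both panels, and the bar of the Motif 1 core is below it at the summits.

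Other genes of the same machinery were read in the same way from lists drawn up with earlier results of these data known. Of 20 genes for promoter and chromatin cofactors, 18 had a thresholded summit within 1000 bp, against 36.7% of all genes, with a median best signal value of 871. The strongest were Nup98-96, a nucleoporin gene (signal value 3585, rank 11), fs(1)h, which encodes a BET bromodomain protein (3301, rank 18), and Nelf-E, which encodes part of the NELF complex that pauses RNA polymerase II (3110.0, rank 23). Nurf-38, a remodeller subunit gene, and zld, which encodes the pioneer factor Zelda, had none. Gfzf, known as a cofactor of M1BP, had a thresholded signal value of 475 and rank 2621, and ranked 3242, 2234 and 1871 in replicates 1, 2 and 3. It was singled out after its values were seen.

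Of 19 genes for further insulator and loop proteins, 8 had a thresholded summit, near the 36.7% of all genes, with a median best signal value of 668. The cohesin release gene wapl (1255, rank 708), the cohesin subunit gene SMC1 (1198, rank 782) and the topoisomerase gene Top2 (773, rank 1564) were the strongest. Among the 11 without one were dwg, which encodes the insulator protein Zw5, and Elba1, a subunit of an early embryonic insulator complex. In all 3 replicates 15 of the 20 cofactor genes and 6 of the 19 insulator genes were among the strongest entries, against 27.2% of all genes. The symbols Nelf-B and SA matched no gene name.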

How the data were processed

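Peak lists of 3 ChIP-seq libraries of 1 group were used. Per the deposited notes, the authors made each replicate's list from its alignment and 1 shared control, made a pooled list from the 3 alignments with that control, and derived the thresholded list from these 4 lists by irreproducible discovery rate, on dm6. The sources used here give no aligner, caller, cut or version. The deposited signal value is a score of the authors' caller with unstated scale. The deposited −log10 q-value is also the authors' and reaches a ceiling. Control libraries were not analysed here.

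Start sites are those of all transcripts of protein-coding genes in Ensembl release 115 (BDGP6.54), and sequence is NCBI Release 6. Both share dm6 coordinates, and every list's largest interval end lay inside each arm; 3 entries on other sequences were not used. A summit is the interval start plus the deposited offset, counted from 1. As design for named genes, all members were taken, with the genes whose start site lies within 1000 bp of their thresholded summits, the 3 strongest and first 2 summit-less genes of 2 further lists, and the 3 genes most like M1BP in log10 rank (no entry counting as 1 past the list). Members, lists and motifs were chosen with earlier results of these data known. The searches were tested on simulated data. Windows, start sites, list cuts, motif settings and left-out replicates were varied. Python 3.11.15, numpy 2.4.6, pandas 2.3.3 and matplotlib 3.10.9 were used.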

Additional observations from a re-analysis of the deposited data

How the results depend on the processing

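The count of 9 members with a thresholded summit within 1000 bp ranged from 6, for peaks above the median signal value (22.8% of all genes), to 10, for a window of 2000 bp (40.6%), and was 9 or 10 when 1 replicate was left out and the strongest entries of both others were used instead. With the higher-coordinate summit of neighbours within 250 bp dropped, that count stayed at 9 (36.6% of all genes). The motif counts were not repeated with such summits dropped. The count of 9 in the strongest entries of all 3 replicates was 2 for the 2000 strongest entries (Chro and pzg, 14.8% of all genes); it was 8 for a −log10 q-value of at least 2 (22.7%) and 8 for a window of 250 bp (20.9%). Without replicate 1, 2 or 3 it was 9, 9 and 10, against 28.3%, 32.4% and 29.9% of all genes. The 1 thresholded peak with the Motif 1 core, at su(Hw), became 0 within 50 bp, against 10.6% of all 4598 summits. Within 250 bp the count stayed at 1, against 20.1%. For the full consensus, which reaches 1 base further on each side, it was 0, against 10.7%. With up to 1 mismatch it was 3, against 33.2%. Leaving out replicate 1, 2 or 3 gave 0 to 1: 0 of the 7 peaks left without replicate 1 and 0 of 8 without replicate 3, since peaks then had to lie within 100 bp of a summit in both others. Matching shares of all summits were not counted with a replicate left out. The median best signal value of 579.8 was 662 within 250 bp, where su(Hw) drops out, and 579 in the pooled list, where BEAF-32 enters. No paired analysis was possible because the series has 1 group. Depth is unknown, so an absent entry cannot be told from one that was not detectable.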
